A study of Mus musculus with 24 samples.

Results

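The olfactory receptor promoters of mouse chromosome 2 were followed as 223 bait fragments, of 22203 baits in the whole series and 1873 on that chromosome. Promoter capture Hi-C joins DNA that is close in the nucleus and enriches the junctions that carry a promoter, so that each bait, a HindIII restriction fragment with a capture probe, comes with a list of the fragments it was called to touch. A bait was a member if it held an annotated end of a gene whose symbol starts with Olfr (217 baits) or lay within 1 kb of one (6 baits). The chromosome carries 377 annotated Olfr genes, 287 coding and 90 pseudogenes, of which 235 had a bait, and 23 baits carry several of them.

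Olfactory receptors are the odorant-binding G protein-coupled receptors of the nasal epithelium, and an olfactory sensory neuron expresses a single allele out of the whole family. In mouse sensory neurons the receptor clusters of many chromosomes gather in shared nuclear compartments, held by the factors Lhx2, Ebf and Ldb1, while in other cell types the clusters are mostly silent and lie in heterochromatin. The cells measured here are not olfactory neurons. They are labelled cranial neural crest, the migratory embryonic population that forms much of the facial skeleton, and the files hold no expression, so the cell type could not be checked against markers.

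The 24 libraries form 12 groups of 2. Ezh2cKO embryos, a conditional knockout of Ezh2 (a Polycomb histone methyltransferase that silences genes), gave FNP, Mx, Md and PA2 at E11.5, usual short names of the frontonasal process, the maxilla, the mandible and pharyngeal arch 2. The genotype Hoxa2PTE-42kb-del was measured in PA2 and Hoxa2PTE-36kb-del in Md and PA2, both at E11.5 (42kb and 36kb below). Wild-type (WT) embryos gave the same 4 tissues at E11.5 and neural crest progenitors at E8.5. Per the labels' protocol, neural crest cells were sorted from Ezh2cKO embryos and from embryos that carry Wnt1::Cre and a ROSA-RFP reporter. The labels do not say what drives the knockout, where the deletions lie or whether deletion cells were sorted. The titles call the replicates biological except in the 42kb group, whose batch labels share a leading number that no other libraries share. P-values therefore measure the spread between libraries. Each library listed 142284 to 190343 interactions with a score of 5 or more, and read depth is unknown.

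The members fell into 3 clusters, each taken from its first to its last bait. Receptor genes without a member bait, such as Olfr1271, Olfr1272 and Olfr1274, lie beyond the last bait of the middle cluster and count as outside it. The proximal cluster, at chr2:36371617-37334021 (mm10), has 26 baits, Olfr338 to Olfr368, and no other coding gene. The middle cluster, the largest, at chr2:85400380-90153180, has 168 baits, Olfr992 to the bait shared by Olfr1270 and Olfr32. The distal cluster, at chr2:111223892-112155937, has 29 baits, Olfr1275 to Olfr1318.

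The start regions of the most connected members are shown because their baits recur in most results below. RefSeq windows (GRCm38.p6, 250 bases before the annotated start to 50 after it) were found for 182 of the 235 member genes. In 77.2% of 184 member windows an ATG stands at the annotated start itself, against 5.83% of all 32851 windows, so the annotated start of these genes is mostly their coding start and the window is not a mapped promoter. Capitals mark the TATA box TATAAA and the homeodomain cores TAATTA and TAATGA, each read on either strand. Olfr1012 (chr2:85760325-85760624, minus strand), Olfr1014 (chr2:85776336-85776635, plus strand) and Olfr1176 (chr2:88339317-88339616, plus strand) start in baits among the 5 with the most cis calls. The bait of Olfr1012 ends at position 85760407, so most of its printed window lies beyond the bait. Olfr1137 (chr2:87711855-87712154, minus strand) lies in a bait called between stages, although its progenitor libraries lay far apart (0 and 15 calls). The log2 change of that bait between stages lay between 0.10 and 4.98 when a library was left out.
Olfr1012: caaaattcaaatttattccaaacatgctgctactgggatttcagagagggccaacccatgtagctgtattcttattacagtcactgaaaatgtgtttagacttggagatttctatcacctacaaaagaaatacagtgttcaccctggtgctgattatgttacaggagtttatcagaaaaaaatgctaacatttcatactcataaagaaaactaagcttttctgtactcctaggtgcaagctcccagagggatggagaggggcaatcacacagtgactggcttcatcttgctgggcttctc
Olfr1014: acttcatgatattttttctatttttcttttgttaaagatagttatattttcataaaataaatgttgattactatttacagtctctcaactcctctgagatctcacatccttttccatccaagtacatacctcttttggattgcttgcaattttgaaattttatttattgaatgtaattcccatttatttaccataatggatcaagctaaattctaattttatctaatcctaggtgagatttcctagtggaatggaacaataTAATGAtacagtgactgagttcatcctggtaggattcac
Olfr1176: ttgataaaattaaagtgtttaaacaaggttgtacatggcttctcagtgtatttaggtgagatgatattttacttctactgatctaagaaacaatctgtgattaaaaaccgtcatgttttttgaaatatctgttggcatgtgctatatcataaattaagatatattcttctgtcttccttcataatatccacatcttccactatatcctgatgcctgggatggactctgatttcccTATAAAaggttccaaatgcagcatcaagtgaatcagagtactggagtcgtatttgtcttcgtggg
Olfr1137: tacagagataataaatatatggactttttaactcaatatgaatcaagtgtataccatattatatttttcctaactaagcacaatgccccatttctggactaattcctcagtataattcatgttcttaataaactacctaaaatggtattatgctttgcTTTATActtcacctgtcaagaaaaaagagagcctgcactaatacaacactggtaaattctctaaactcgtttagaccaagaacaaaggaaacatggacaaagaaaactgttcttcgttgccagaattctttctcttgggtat

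Any of the 3 motifs, searched on both strands, was found in 73.9% of member windows and 24.3% of all windows. TATAAA was found in 47.8% against 13.6%, TAATTA in 25.5% against 5.29% and TAATGA in 33.7% against 9.78%. The member windows also had a median of 32.7% G or C, against 52.7%, and letters rich in A and T match such motifs more often. Of the 4 windows shown, that of Olfr1012 holds none of the 3 motifs.

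Most contacts of members stayed inside their own cluster. Averaged over the 24 libraries, a member listed 1.54 to 45.2 cis calls with a median of 6.58, against 4.50 over all baits, and 150 of the 223 had a cis call in every library. A median of 87.6% of a member's cis calls ended in its own cluster: 82.5% in the proximal, 90.1% in the middle and 61.5% in the distal cluster. With pairs of 2 baits counted, the 5 members with the most cis calls lie in the middle cluster: the bait of Olfr1010 and Olfr1012 (mean 45.2), Olfr1176 (44.0), Olfr1008 (42.2), Olfr1014 (32.5) and Olfr1162 (27.0). Over contacts with unbaited fragments alone the order was Olfr1008 (22.4), Olfr1010 with Olfr1012 (21.2), Olfr1176 (20.8), then Olfr368 (20.0) and Olfr348 (17.1) of the proximal cluster, while Olfr1162 averaged 0.375. With pairs counted, the contacts of these 3 middle-cluster baits had median distances of 1873 kb for Olfr1010 and Olfr1012, 1400 kb for Olfr1176 and 2022 kb for Olfr1008.

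The edges of the clusters differed from one another. Olfr338, the first bait of the proximal cluster, averaged 25.8 cis calls with 79.5% inside the cluster. Olfr368, its last bait, averaged 22.6 calls with 9.78% inside. In the middle cluster, Olfr992 at the first edge averaged 1.54 calls and the bait of Olfr1270 and Olfr32 at the last edge 16.7. In the distal cluster, Olfr1275 averaged 4.88 calls and Olfr1318 averaged 4.08.

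Most single contacts of members were called in 1 library. Of 12642 distinct member contacts with unbaited fragments, 80.3% were called in 1 library only, against 62.4% of 1015248 over all baits. Between replicates, the median share of such calls held in common was 0.0632 for members (12 pairs) and 0.0525 for the 264 pairs of libraries from different groups, against 0.304 and 0.268 over all baits. Counts per bait, summed over its contacts, are therefore the values compared below.

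The deletion libraries stand apart in how pairs of 2 baits are listed. In the 18 other libraries every cis pair of 2 baits is listed with the bait of higher coordinate first, whereas in the 6 deletion libraries only 50.8% to 51.3% are. Pairs of 2 chromosome 2 Olfr baits numbered 537 and 592 in the 42kb libraries and 720 to 857 in the 36kb libraries, against 432 to 455 in WT Md and PA2. The excess sat in one listing order. Of the member pairs called in at least 4 of the 6 deletion libraries, 110 are listed with the higher coordinate first, and each of these was also called in at least 1 of the 18 other libraries, in a median of 15. The 157 listed with the lower coordinate first were called in a mean of 0.178 other libraries, and 145 of them (92.4%) in no other library.

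**Figure D1:**
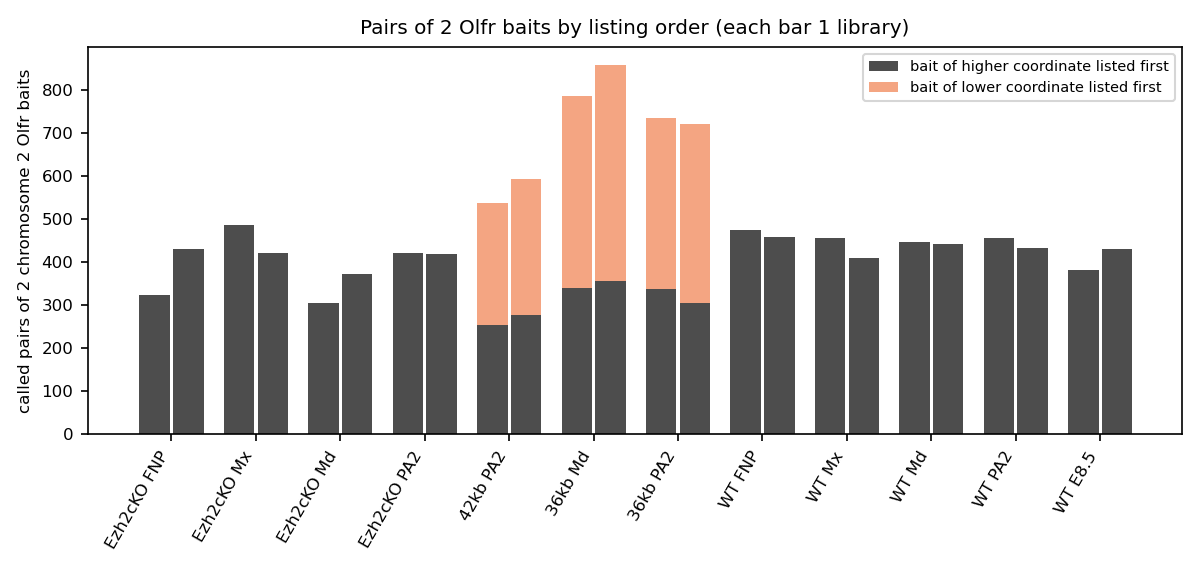
Called cis pairs of 2 chromosome 2 Olfr baits in each of the 24 libraries, 1 bar a library, with grey for pairs listed with the bait of higher coordinate first and orange for the other order. Orange appears in the 6 deletion libraries, which hold 537 to 857 pairs.

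How the deletion files were made and what the deletions did to such pairs cannot be told apart. Deletion libraries were therefore set against WT over contacts with unbaited fragments, for which 45 members had a mean of 5 or more calls and could be fitted (22 in the proximal cluster, 23 in the middle one and none in the distal one). All other comparisons are between files listed alike and used all calls, with 130 of the 223 members fitted (58.3%, against 46.6% of all baits). The other 93 members had a mean under 5 calls and were not tested.

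In Ezh2cKO tissues, a few receptor baits had fewer contacts and 1 had more. Over the 4 tissues, 1 member rose and 9 fell of 130 fitted (limma, adjusted p under 0.05 over all baits), while of all 10344 baits fitted 5.38% rose and 5.39% fell. The median log2 change was -0.14 over the fitted members and 0.01 over all baits. In the same fit, 1 of 129 Olfr baits of chromosome 7 rose and 13 fell (median -0.26), and 0 of 51 vomeronasal receptor baits rose and 6 fell (median -0.24).

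Olfr1184 listed 1, 3 and 6 cis calls (lowest, median and highest) in the 8 Ezh2cKO libraries, against 5, 10 and 12 in the 8 WT libraries. The ranges met at their edges only, and the log2 change was -1.46 (SE 0.27, adjusted p = 0.00127). Olfr353 listed 1, 2 and 6 calls in Ezh2cKO libraries against 4, 8.5 and 11 in WT libraries (log2 change -1.58, SE 0.36, adjusted p = 0.00753). Olfr1178 listed 14, 19 and 34 calls in Ezh2cKO libraries against 24, 28.5 and 39 in WT libraries (-0.57, SE 0.15, adjusted p = 0.0148). These 3 members kept their call when any 1 of the 16 libraries was left out, and the other 7 calls held in 3 to 14 of those 16 fits. Olfr1178 and Olfr1184 lie in the middle cluster and Olfr353 in the proximal one.

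The other 6 falls were in the middle cluster: Olfr1019 (log2 change -1.05), Olfr1087 (-0.63), Olfr1090 (-0.85), Olfr141 (-0.40), Olfr1186 (-1.07) and the edge bait Olfr1270;Olfr32 (-0.55), with adjusted p from 0.0176 to 0.0439 in limma. The rise was Olfr355, in the proximal cluster, with 15, 23 and 39 calls in Ezh2cKO libraries against 8, 13.5 and 23 in WT libraries (0.61, SE 0.19, adjusted p = 0.0403). None of the 130 members had ranges free of overlap between the groups, while 0.628% of all baits were higher and 1.02% lower without overlap.

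Over contacts of 1 Mb or more, 4 of 56 fitted members rose and none fell, while 8.25% of 2316 baits rose and 9.07% fell, 17.3% in all. The median log2 change was 0.08 over these members and 0.04 over all baits. Olfr1133 listed 9, 11 and 15 far calls in Ezh2cKO libraries against 5, 7.5 and 10 in WT libraries (log2 change 0.69, SE 0.23, adjusted p = 0.0351 in limma). Olfr368 (0.56, adjusted p = 0.0149), Olfr1013 (0.68, adjusted p = 0.0381) and Olfr1014 (0.52, adjusted p = 0.0236) were the others. Tested by tissue, the F test of a difference in the Ezh2cKO effect called 0 of 130 members and 0.00967% of all baits. An unadjusted p under 0.05 was seen in 16 members, and the share of all baits at that level is not given here. Single tissues called Olfr1219 in FNP (-1.88), Olfr1179 in Md (-1.68) and, in Mx, Olfr1184 (-2.36), Olfr1270;Olfr32 (-1.55) and Olfr340 (1.31, the only rise), with 0 in PA2. In PA2, 15 of 130 members and 1339 of all 10344 baits had an unadjusted p under 0.05 in limma. The share of all baits called was 0.831% in FNP, 1.84% in Md, 1.26% in Mx and 1.63% in PA2.

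**Figure D2:**
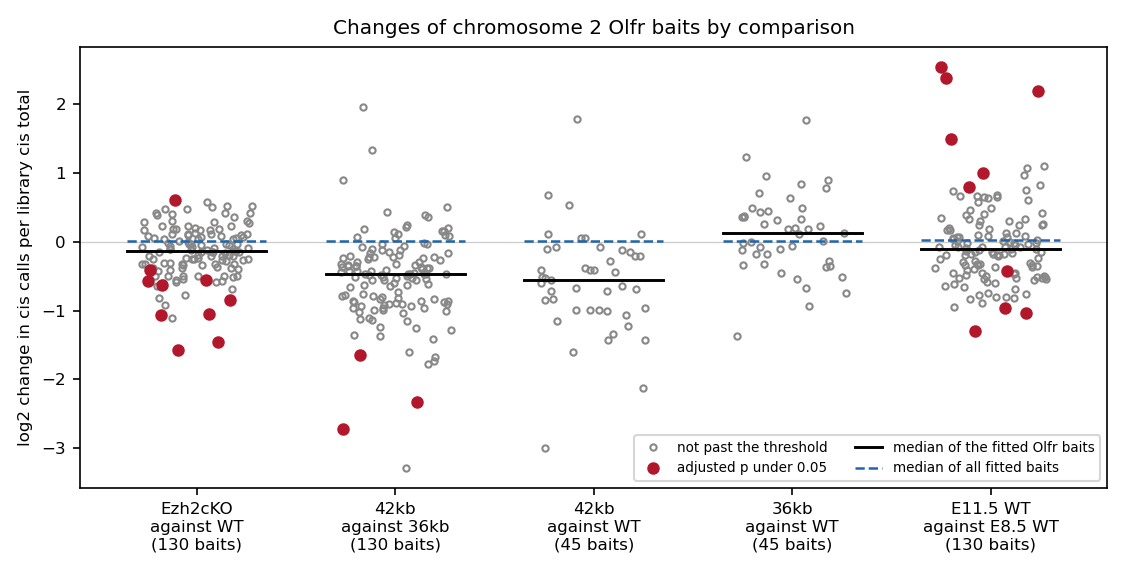
Log2 change in cis calls per library cis total (vertical axis) for each fitted chromosome 2 Olfr bait in 5 comparisons, with called baits in red. Solid bars are the median of the fitted Olfr baits and dashed bars the median of all fitted baits. The median of the Olfr baits lies at -0.56 for 42kb against WT and at -0.47 for 42kb against 36kb.

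Members had fewer calls in the 42kb deletion than in the 36kb deletion of the same tissue, PA2. Of 130 fitted members 3 fell and none rose, while 0.28% of all 10344 baits fell and 0.145% rose. The median log2 change was -0.47 over the members and 0.01 over all baits, and 59 of the 130 were lower in both 42kb libraries than in either 36kb library, with 5 higher in both, while 13.3% of all baits were lower and 19.6% higher in this way. Of all baits 0.425% were called in either direction. Other receptor baits were low too, with a median of -0.38 over 129 Olfr baits of chromosome 7 and -0.23 over 167 of other chromosomes. It was -0.59 over 51 vomeronasal receptor baits and -0.14 over 43 baits of other genes in or within 1 Mb of the clusters. Olfr1008 listed 12 and 19 cis calls in 42kb PA2, against 41 and 51 in 36kb PA2. The ranges were far apart (log2 change -1.64, SE 0.24, adjusted p = 0.0028), and the call held without any 1 of the 4 libraries.

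Olfr1018 listed 1 and 4 calls in 42kb PA2 against 11 and 13 in 36kb PA2 (-2.33, SE 0.51, adjusted p = 0.0424), and Olfr1132 listed 1 and 3 calls against 12 and 16 (-2.72, SE 0.54, adjusted p = 0.0278). Olfr1018 kept its call in 1 and Olfr1132 in 2 of the 4 fits that left out a library. Over contacts of 1 Mb or more, 5 of 56 members fell (2.16% of 2316 baits called), Olfr1008 with 7 and 8 far calls in 42kb PA2 against 36 and 44 in 36kb PA2 (-2.34, SE 0.26, adjusted p = 2.21e-06). The others were Olfr354, Olfr1014, Olfr1132 and Olfr1242. When pairs of 2 baits were left out, 0 of 45 members passed over calls at all distances.

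**Figure D3:**
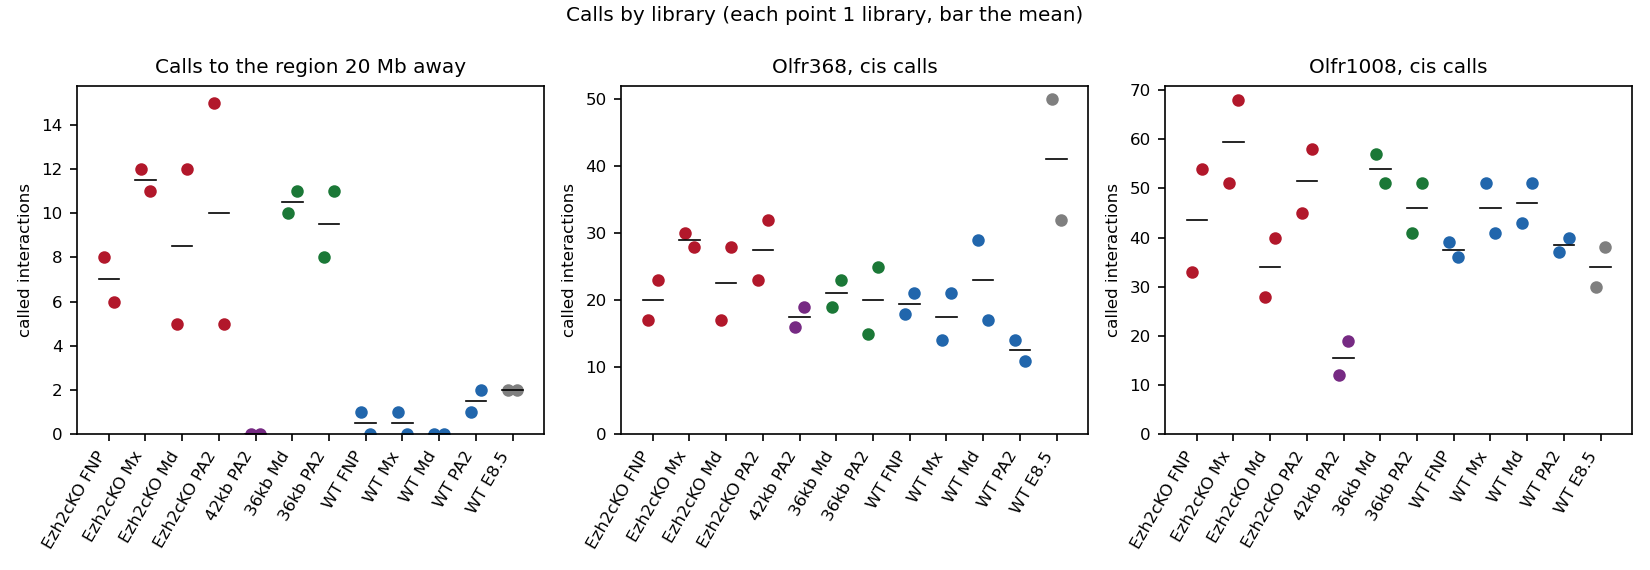
Called interactions in each of the 24 libraries (1 point a library, bar the mean of a group) for 3 quantities: calls of chromosome 2 Olfr baits to the region 20566 kb away described below, cis calls of Olfr368 and cis calls of Olfr1008. The first is at 0 in both 42kb libraries and at 8 to 11 in 36kb libraries. Olfr368 is higher in both E8.5 libraries than in every E11.5 WT library, and Olfr1008 is lowest in the 42kb libraries.

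Set against WT PA2 over unbaited contacts, the 42kb libraries called 0 of 45 members in limma, while 0.33% of 7569 baits rose and 0.925% fell, 1.26% in all. In the same fit, 12 of the 45 members and 1134 of the 7569 baits had an unadjusted p under 0.05. The median log2 change was -0.56 over the members, against 0.01 over all baits, and 7 of the 45 were above 0. Over contacts of 1 Mb or more, 0 of 21 members passed (2.45% of 1794 baits called in limma). In 24 members both 42kb libraries were lower than both WT libraries, and in 2 both were higher, while 29.6% of all fitted baits were lower and 12.9% higher in this way. The smallest adjusted p were those of Olfr346, with 0 and 2 calls in 42kb PA2 against 7 and 13 in WT PA2 (-3.00, adjusted p = 0.0785), and Olfr1245, with 1 and 2 calls against 9 and 9 (-2.12, adjusted p = 0.0810). Other receptor baits were low too: the median was -0.71 over 49 Olfr baits of chromosome 7, -0.60 over 50 of other chromosomes and -0.85 over 31 vomeronasal receptor baits, whereas it was 0.07 over 30 baits of other genes in or within 1 Mb of the clusters.

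The members' share of a library's unbaited cis calls was 0.367% and 0.392% in 42kb PA2, against 0.639% and 0.548% in WT PA2. The 42kb values were the lowest of the 24 libraries. In these 2 libraries 151 and 168 of the 223 members had an unbaited cis call, against 192 and 186 in WT PA2. Whether the 42kb libraries were prepared differently was not tested.

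In the 36kb deletion, 0 of 45 members passed against WT Md and PA2 in limma, while 1.78% of 7569 baits rose and 2.62% fell, 4.4% in all. An unadjusted p under 0.05 was seen in 8 of the 45 members and 1641 of the 7569 baits. The median log2 change was 0.12 over the members and 0.02 over all baits. The smallest adjusted p was that of Olfr1246, with 4, 5 and 9 calls (lowest, median and highest) in 36kb libraries against 0, 2 and 6 in WT libraries (1.78, SE 0.54, adjusted p = 0.0663). Olfr364-ps1, a pseudogene, listed 2 to 7 calls in 36kb libraries against 9 to 17 in WT libraries without overlap (-1.36, adjusted p = 0.120). Taken by tissue, 0 of 45 members passed in Md (1.14% of baits called) and in PA2 (0.277% of baits called). An unadjusted p under 0.05 in limma was seen in 5 members and 1136 of 7569 baits in Md. In PA2 it was seen in 2 members and 927 of 7569 baits. Over contacts of 1 Mb or more, 2 of 21 members rose (4.24% of 1794 baits called): Olfr1246 (2.02, adjusted p = 0.0288) and Olfr1014, with 13 to 19 calls in 36kb libraries against 4 to 17 in WT libraries (1.44, adjusted p = 0.0346). The members' share of unbaited cis calls was 0.597% to 0.695% in 36kb libraries and 0.548% to 0.639% in WT Md and PA2, and these ranges overlapped. With pairs of 2 baits counted, 34 of 130 members would pass. The share of all baits in that setting is not given here, so this number is not read as a result. How the files list such pairs cannot be told apart from an effect of the deletion there.

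**Figure D4:**
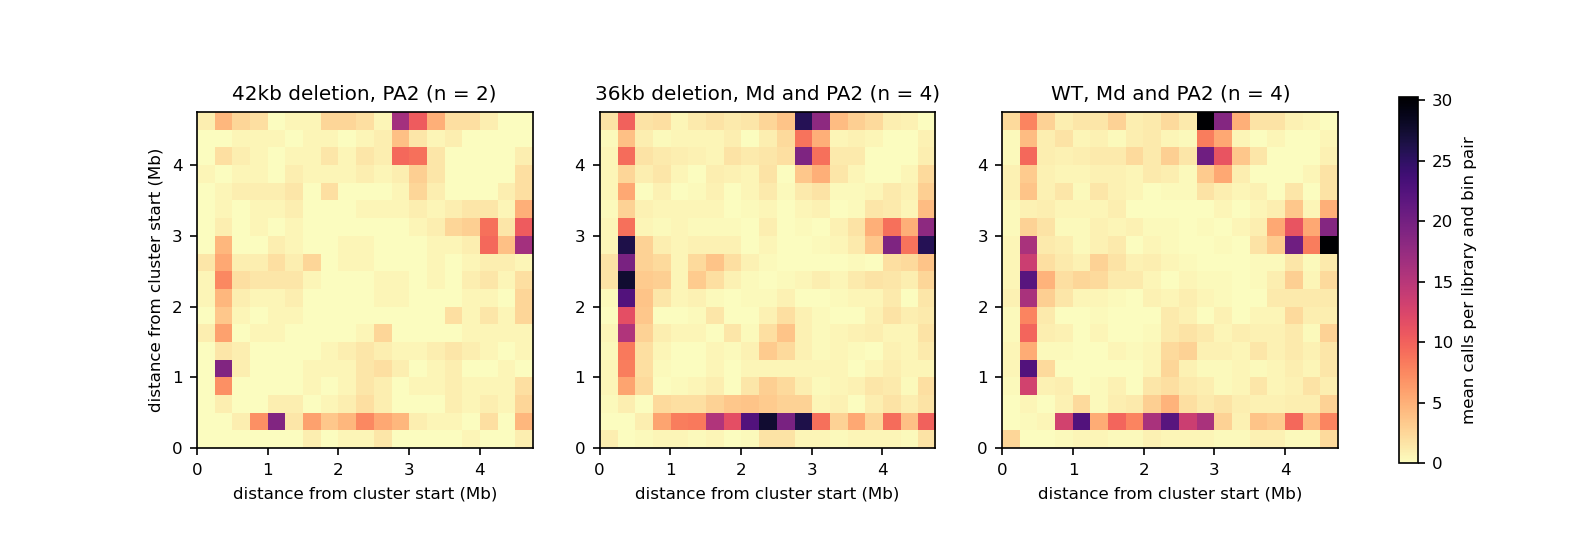
Contacts of chromosome 2 Olfr baits with unbaited fragments inside the middle cluster, as mean calls per library for each pair of 250 kb bins, with both axes in Mb from the start of the cluster. Calls concentrate in a stripe at 0.3 to 0.4 Mb, where Olfr1008 to Olfr1014 lie, and in one near 2.9 Mb at Olfr1176, and both are paler in the 42kb libraries.

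Far contacts inside the middle cluster were spread unevenly over many fragments. Over the 24 libraries 7530 unbaited contacts of 1 Mb or more were called between 998 fragments, with a median of 5 a fragment. That median includes the unbaited fragments, which can be called only from a bait, so baits lie above it by design. Olfr1008 took part in 453 of them, the bait of Olfr1010 and Olfr1012 in 392 and Olfr1176 in 362, which together is 16.0%. The stripes were seen in every group. Contacts of this kind made up 0.170% to 0.295% of unbaited cis calls in Ezh2cKO libraries, 0.109% and 0.137% in 42kb PA2, 0.247% to 0.317% in 36kb libraries, 0.195% to 0.248% in E11.5 WT libraries and 0.265% and 0.290% in E8.5 libraries. The 42kb libraries lay below all others. For contacts under 1 Mb in the cluster the share was 0.0472% and 0.0487% in 42kb PA2, against 0.0663% and 0.0635% in WT PA2. Near shares as low were seen in other groups, with 0.0367% to 0.0615% in Ezh2cKO and 0.0485% to 0.0713% in E11.5 WT libraries. For the 42kb libraries the far share lay outside the range of the others and the near share did not. In the E8.5 libraries the near share was 0.101% and 0.106%, above all others.

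Few members differed between stages. Of 130 members 6 rose and 4 fell at E11.5 relative to E8.5 progenitors (WT, limma), while 18.6% of all 10344 baits rose and 10.3% fell. The median log2 change was -0.10 over the members and 0.03 over all baits. Over the 129 Olfr baits of chromosome 7 it was 0.34 (26 rose, 7 fell), and over 43 baits of other genes in or near the clusters it was -0.72 (0 rose, 16 fell).

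Olfr368, at the last edge of the proximal cluster, listed 11, 17.5 and 29 cis calls (lowest, median and highest) in the 8 E11.5 WT libraries, against 32 and 50 in the 2 E8.5 libraries. Both E8.5 libraries lay above every E11.5 WT library (log2 change -1.29, SE 0.24, adjusted p = 4.07e-04), and the call held without any 1 of the 10 libraries. Most contacts of Olfr368, 76.0% over all libraries, jumped across its own cluster to ends beyond the opposite edge. Those ends were at 8, 15 and 20 in E11.5 WT libraries, against 41 and 24 in E8.5 libraries. Of 412 such calls over the 24 libraries 236 ended at chr2:36200001-36300000, where Ptgs1 lies, the gene of cyclooxygenase 1. Within its own cluster Olfr368 listed 0 or 1 calls in each E11.5 WT library and 9 and 8 in the E8.5 libraries.

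Olfr1245 listed 7, 13 and 17 calls at E11.5 against 1 and 4 at E8.5 (log2 change 2.20, SE 0.46, adjusted p = 0.00105). Olfr1029 listed 3, 6 and 9 calls against 0 and 2 (2.38, SE 0.52, adjusted p = 0.00155). Olfr1137 listed 15, 16 and 22 calls against 0 and 15, a log2 change of 2.54 that lay between 0.10 and 4.98, with an adjusted p of up to 0.844 in limma, when 1 library was left out. It rests on 1 of the E8.5 libraries.

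The other called members were Olfr1184 (1.50), Olfr1006 (1.01) and Olfr341 (0.79), which rose, and Olfr347 (-0.97), Olfr1016 (-1.04) and Olfr1176 (-0.42), which fell, with adjusted p from 0.0102 to 0.0438. The stages did not overlap in 7 of the 10 called members. Of all 130 fitted members 9 were higher at E11.5 without overlap and 2 lower, while 20% of all baits were higher and 9.77% lower in this way. Without the first E8.5 library 2 members passed, and 9 of the 10 calls held in 3 to 9 of the 10 fits that left out a library.

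Over contacts of 1 Mb or more, 4 of 56 members rose and 2 fell (42.3% of 2316 baits called). The smallest adjusted p was that of the bait Olfr1243;Olfr1244-ps1, with 13, 17.5 and 20 far calls at E11.5 against 4 and 6 at E8.5 (log2 change 1.62, SE 0.31, adjusted p = 1.19e-04 in limma). Olfr1006, Olfr1137 and Olfr1245 rose and Olfr368 and Olfr1020 fell as well.

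Between the 4 WT tissues at E11.5, limma's F test called 0 of 130 members and 0.271% of all baits. An unadjusted p under 0.05 was seen in 11 members, and the share of all baits at that level is not given here.

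Calls that join 2 of the 3 clusters were more frequent at E11.5. They numbered 27 to 54 in the E11.5 WT libraries (median 39.5), against 5 and 5 in the E8.5 libraries, a log2 ratio of 2.84 in their share of cis calls. No E11.5 WT library came near the E8.5 values. Contacts of 20 Mb or more as a whole went the other way, with 5.89% to 6.87% of all cis calls in E11.5 WT libraries against 8.96% and 9.20% in E8.5 libraries. Olfr clusters of other chromosomes went with the members: calls between clusters of the same chromosome were 0.0740% of cis calls on average in E11.5 WT libraries, against 0.0321% and 0.0279% in the E8.5 libraries.

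The calls between clusters did not settle on fixed partners. Of 776 distinct pairs over the 24 libraries, 759 were called in 1 library only, and none in more than 3. The members with the most such calls lie in the small cluster at 36 Mb: Olfr354 (50 over the 24 libraries), Olfr355 (25), Olfr368 (23), Olfr338 (22) and Olfr340 (21). Ezh2cKO libraries had 21 to 66 calls between clusters, which overlapped with the 27 to 54 of their WT controls. Over unbaited contacts, 42kb PA2 had 11 and 11 and 36kb libraries 18 to 28, against 29 to 42 in WT Md and PA2. As a share of cis calls the 42kb libraries stayed below WT PA2 (0.00895% and 0.00864%, against 0.0257% and 0.0204%), whereas 36kb libraries (0.0145% to 0.0222%) overlapped with WT Md and PA2 (0.0204% to 0.0296%). No test was fitted to these counts.

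**Figure D5:**
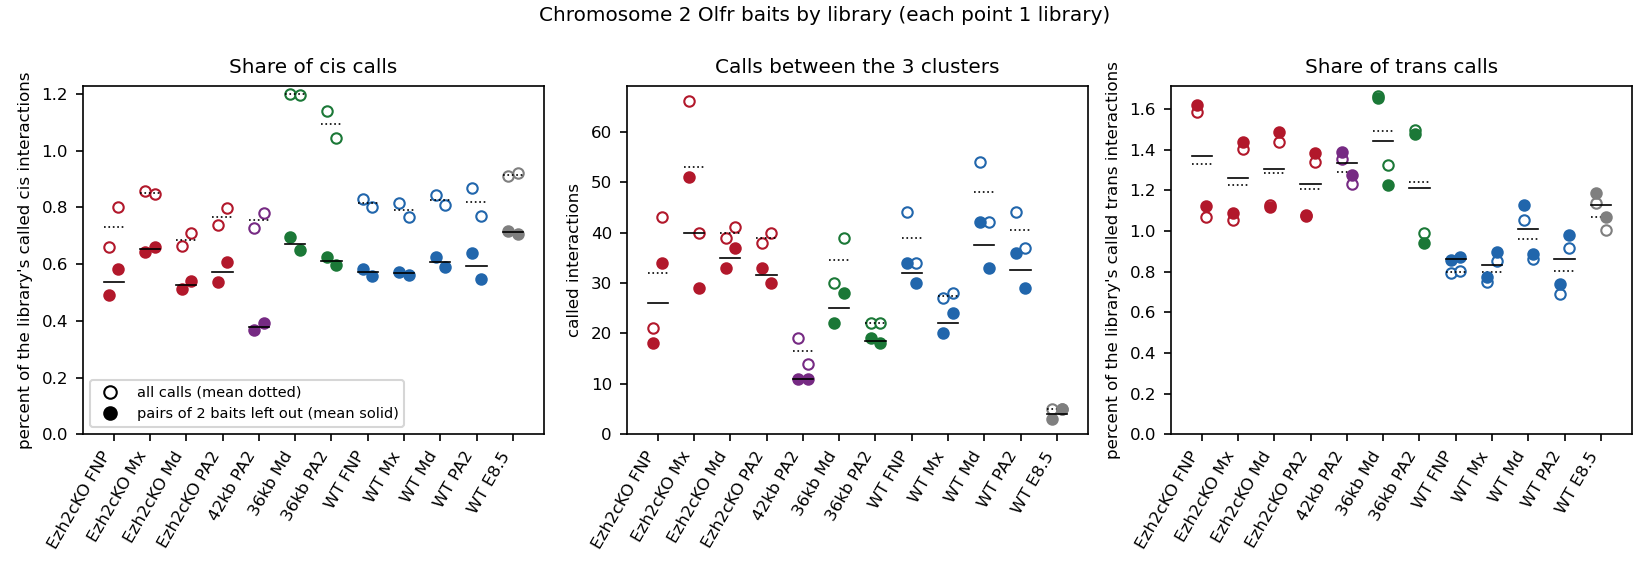
Share of cis calls from chromosome 2 Olfr baits, calls between their 3 clusters and share of trans calls in each library (1 point a library), with open points for all calls and filled points with pairs of 2 baits left out. The E8.5 libraries have 3 to 5 calls between clusters, the 42kb libraries the lowest filled share of cis calls, and Ezh2cKO libraries 1.05% to 1.59% of trans calls (open points).

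Calls from members to other chromosomes were more numerous in Ezh2cKO and in 42kb libraries than in WT. Members had 63 to 111 trans calls in Ezh2cKO libraries (median 82.5), against 38 to 60 in WT libraries (median 44). These counts did not overlap. As a share of a library's trans calls the groups met, at 1.05% to 1.59% in Ezh2cKO against 0.690% to 1.05% in WT, with a log2 ratio of 0.59 between the means. Trans calls as a whole were also more numerous in Ezh2cKO libraries, by a log2 ratio of 0.32. For other baits of chromosome 2 that ratio was 0.20 with overlapping ranges, and for members it was 0.92. Over unbaited contacts members had 86 and 73 trans calls in 42kb PA2, against 38 and 50 in WT PA2, and 48 to 84 in 36kb libraries, against 38 to 60 in WT Md and PA2.

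Few trans calls joined a member to an Olfr cluster of another chromosome, 0 to 5 in each library. Summed over libraries these were 21 of 689 member trans calls in Ezh2cKO (3.05%) and 12 of 365 in E11.5 WT (3.29%). For other baits of chromosome 2 they were 29 of 4534 in Ezh2cKO (0.640%) and 18 of 3937 in E11.5 WT (0.457%), and the difference between members and other baits was not tested. Of 1514 distinct trans contacts of members, 96.4% were called in 1 library only, against 88.2% of 89266 over all baits. The members with the most trans calls were Olfr354 (41 over the 24 libraries), Olfr1212 (30) and Olfr338 (26).

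A contact between the proximal cluster and a distant region of the same chromosome was present in some groups and nearly absent in others. Of 192 single member contacts called in at least 7 of the 8 libraries of Ezh2cKO or of WT, 1 was gained in Ezh2cKO and 2 were lost, against 1.42% gained and 2.09% lost over all 69168. The gained contact joined Olfr338 to chr2:56938718-56942341 over 20566 kb. It was called in 8 of 8 Ezh2cKO, 4 of 4 36kb and 2 of 2 E8.5 libraries, in 1 of 8 E11.5 WT libraries and in neither 42kb library. Its median score was 27.7, well above the minimum of 5.

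The region was then looked at as a whole, a choice made after its values were seen, so no test is given. Members of the proximal cluster made 5 to 15 calls to chr2:56900001-57000000 in Ezh2cKO libraries (median 9), 0 and 0 in 42kb PA2, 8 to 11 in 36kb libraries, 0 to 2 in E11.5 WT libraries and 2 and 2 in E8.5 libraries. Ezh2cKO and 36kb libraries lay above all others. Nearly all of the 123 member calls ended on 2 adjacent unbaited fragments, 62 at chr2:56935877-56938717 and 59 at chr2:56938718-56942341. Up to 16 members called the same fragment, while baits of other genes in and around the cluster made 2 calls to the region in all. No annotated coding gene lies in it, and the nearest to one side is Nr4a2, the gene of an orphan nuclear receptor. The labels do not give the genetic background of the embryos.

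In the 36kb deletion, 8 of 39 member contacts with unbaited fragments that were called in all 4 libraries of a genotype were present in 36kb and absent from WT Md and PA2, and 9 the reverse, against 1.67% and 4.15% over all 51866. A contact entered this count only by being called in all 4 libraries of a genotype. Member contacts also recurred less between libraries than those of all baits. These shares are therefore not read as an effect of the deletion. Besides Olfr338 and Olfr340, which called the distant region, Olfr1141 called 2 adjacent fragments at chr2:97662803-97667309 and chr2:97667310-97669031 in 4 of 4 36kb libraries and in no other library. Of 5 member contacts called in all 6 deletion libraries or in at least 17 of the other 18, 1 was present in the deletions only (0.396% over all 31789) and 1 in the others only (1.04%). Olfr350 called chr2:36842962-36844028, 8.25 kb away, in 4 of 4 36kb and 2 of 2 42kb libraries and in none of the other 18. In the other direction, Olfr1052 called chr2:86281824-86294806 in 7 of 8 Ezh2cKO, 8 of 8 E11.5 WT and 2 of 2 E8.5 libraries and in no deletion library. The median score was 8.225 for the Olfr350 contact and 5.59 for the Olfr1052 contact, the latter near the minimum of 5.

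Genes that serve the receptors in olfactory neurons were looked up in 2 lists. Of 18 genes of olfactory signal transduction 16 had a bait and 9 baits were fitted. Adcy3, the adenylyl cyclase of olfactory cilia, listed 15.4 ± 1.8 calls in Ezh2cKO and 9.62 ± 2.5 in WT libraries (SD, n = 8 each) and rose (log2 change 0.64, adjusted p = 0.0195 in limma). Ric8b, a chaperone of the olfactory G protein, fell at E11.5, with 3.38 ± 1.85 calls against 9.00 ± 0.00 at E8.5 (n = 8 and n = 2; -1.68, adjusted p = 0.0238).

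Of 21 genes of receptor choice and nuclear organisation 18 had a bait and 14 baits were fitted. In Ezh2cKO libraries Lhx2, a homeobox factor that binds receptor enhancers, listed 15.4 ± 6.6 calls against 27.2 ± 4.6 in WT (-0.96, adjusted p = 0.00362), and Emx2, a homeobox factor needed for the expression of many receptors, 25.2 ± 7.2 against 35.9 ± 4.2 (-0.57, adjusted p = 0.00906). The bait of Nup62, Il4i1b and Atf5 also fell (-0.85), while Cbx1 (0.70) and the bait of Cbx5 and Hnrnpa1 (1.49), which carry genes of heterochromatin protein 1, rose. At E11.5 relative to E8.5, Emx2 (1.16), Ebf1 (0.87), Ehmt2 (1.00), Lmna (1.03) and the bait of Nup62, Il4i1b and Atf5 (0.92) rose and Ehmt1 (-0.92) fell. In the deletions Emx2 fell in 36kb against WT (-0.76) and rose in 42kb against 36kb (1.4), and the bait of Nup62, Il4i1b and Atf5 fell in 42kb against WT (-3.34). That bait listed 2.5 ± 3.5 unbaited calls in 42kb PA2 against 19.5 ± 9.2 in WT PA2 (SD, n = 2 each), so libraries of the same group lay far apart. Over all calls its change in 42kb against 36kb was -0.33 (adjusted p = 0.74 in limma). Contact counts of these genes say nothing of their expression.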

How the data were processed

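The deposited files list called interactions with a score of at least 5, 1 library a file; per the deposited file names the score is CHiCAGO's, and per the submitters' processing notes the build is GRCm38 (mm10). Aligner and caller settings: not given in the sources used here. Scores were not compared between libraries and no count model was fitted, since read counts were not used.

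Members were found by RefSeq gene ends of GRCm38.p6. The members, lists and tests were chosen with earlier results of these data known. Clusters were joined over gaps under 1 Mb. Called cis interactions per bait, at both baits of a pair, plus 0.5 and per library cis total, were fitted on the log2 scale with limma 3.58.1, R 4.3.3 (a mean for each of 12 groups, trend, 24 libraries, mean of at least 5 calls), two-sided, with Benjamini-Hochberg over all baits, threshold 0.05, and tested on simulated data. Python 3.11.15, pandas 2.3.3 and numpy 2.4.6 did the counting. The plan had counted all calls in every comparison; leaving pairs of 2 baits out of the deletion against WT comparisons was decided after their listing order was seen.

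Named were the 5 largest rises and falls past the threshold in a comparison, the 5 members with the most cis calls, the 5 with the most calls between clusters, the 3 with the most trans calls, each cluster's first and last bait, and up to 5 list genes past the threshold in a comparison. Members near the threshold, single recurrent contacts and members called at 1 Mb or more were added after their values were seen. Replicate numbers do not pair the libraries: deviations from group means of same-numbered libraries correlated at -0.09 to 0.16 over 66 pairs of groups. Each library has its own batch label, so batch and library cannot be told apart. The group of the second PA2 36kb library was taken from its title, since its genotype field holds another title.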

Additional observations from a re-analysis of the deposited data

How the results depend on the processing

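Numbers are members called, given without the share of all baits in the same setting, or log2 ratios of group means. The causes of these shifts were not tested unless given. In limma 10 members were called for Ezh2cKO against WT and 10 between stages, against 1 and 3 with a score of at least 10, 4 and 6 at 1 Mb or more, and 2 and 4 with bait pairs left out, which leave fewer calls. Ezh2cKO called 3 members within Mx alone, 1 within FNP, 1 within Md and 0 within PA2. For 42kb against 36kb, 3 members became 0 at the stricter score, 5 at 1 Mb or more and 0 without bait pairs. For deletions against WT, where 0 were called, a mean of at least 2 calls gave 1 for each, no filter gave 1 for 42kb, 1 Mb or more gave 2 for 36kb, and bait pairs at both baits gave 34 for 36kb and 5 for 42kb. No member reached the filter there at the stricter score. Leaving out 1 library gave 4 to 13 members for Ezh2cKO (4 without the first WT PA2 library, 6 without the first WT FNP or the first Ezh2cKO Md library), 2 to 12 for stage (2 without the first E8.5 library), 1 to 5 for 42kb against 36kb (1 without the first 36kb PA2 library, 5 without the second or without the second 42kb library), 0 to 1 for each deletion against WT, 0 to 2 between tissues and 0 to 0 for the Ezh2cKO effect by tissue.

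The share of cis calls between stages was -0.17, against -0.5365 at the stricter score, -0.2835 without bait pairs and 0.01567, the other sign, scaled to chromosome 2. For 36kb against WT it was 0.096, against 0.4902 at the stricter score, 0.4779 with bait pairs and -0.01868, the other sign, scaled to chromosome 2. For 42kb against WT it was -0.65, against -0.8239 at the stricter score and -0.1184 with bait pairs. For 42kb against 36kb it was -0.53, against -0.4291 scaled to chromosome 2 and -0.6873 without bait pairs. Calls between clusters for 42kb against WT were -1.39, against -2.059 at the stricter score and -1.154 with bait pairs, and for 42kb against 36kb -0.48, against -2.122 at the stricter score. Trans calls between stages were -0.35, against -0.1542 scaled to chromosome 2. At the stricter score those of 36kb against WT were -0.04758, the other sign from 0.51, and those of 42kb against 36kb 0.5187, against 0.056.

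Leaving out 1 library gave, for the share of cis calls, -0.1263 to -0.0719 in Ezh2cKO, -0.1844 to -0.1586 between stages, 0.05427 to 0.1286 in 36kb, -0.7523 to -0.5298 in 42kb and -0.5942 to -0.4707 for 42kb against 36kb. In that order, calls between clusters gave -0.07716 to 0.1193, 2.757 to 2.901, -0.6026 to -0.3748, -1.544 to -1.217 and -0.7477 to -0.2622, and trans calls 0.5319 to 0.6396, -0.4357 to -0.2588, 0.3802 to 0.6379, 0.4441 to 0.8468 and -0.2095 to 0.3826. With the replicate number as a block, the counts were 9 for Ezh2cKO, 12 for stage, 3 for 42kb against 36kb and 0 for the other comparisons. Of all single settings, 32 values moved, 3 changed sign and 79 stayed. Read depth is unknown, so an absent call does not show an absent contact, and members with few calls were not tested.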

Other observations

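Some places outside the clusters were called often by members, and those named here were chosen after their values were seen and are given with no test. Members of the distal cluster called chr2:111100001-111200000, just before it, 424 times over the 24 libraries, and A26c3 is the coding gene annotated there. The flank just after that cluster, chr2:112200001-112300000, was called 1 to 6 times in each E11.5 WT library and 14 and 13 times in the E8.5 libraries, without overlap. Beyond the end of the middle cluster, chr2:90500001-90600000, where the phosphatase gene Ptprj lies, was called 1 to 5 times in E11.5 WT libraries and 7 and 13 times in the E8.5 libraries. Olfr1176, which lies well inside the middle cluster, made 33 of these calls over the 24 libraries.

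A few trans contacts recurred. Olfr1302 called a fragment of chromosome 7 annotated Nlrp5-ps in 10 of 24 libraries, and Olfr1089 called a fragment of chromosome 14 with no annotated gene in 8.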
